A study of Mus musculus with 6 samples.

Results

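The 8 genes described here handle glutamine and glutamate: Glul, Gls2, Glud1, Slc38a1, Slc38a2, Slc1a5, Slc7a11 and Gjb1. They were taken by name, as the rows of the deposited count tables whose Ensembl identifier maps to these symbols, and all 8 were found among the 38924 genes of the tables. The libraries are RNA-seq libraries of microglia from whole brains of WT female C57BL/6 mice, 3 mice aged 5 weeks and 3 aged 24 weeks, each mouse giving 1 library, without treatment. Microglia, the resident macrophages of the brain, were collected with beads against the surface protein CD11b after removal of the meninges and of myelin, a preparation that by the study's own cytometry is mostly but not wholly microglia. The study compared such mice with Het females that model Rett syndrome, in which glutamate release by microglia has been proposed to be toxic. The Het libraries are not analysed here, so the comparison in these data is that between the 2 ages of WT mice. The 5-week libraries were sequenced in 1 lane and the 24-week libraries in another, so age and lane cannot be told apart.

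Glutamine is the main carrier of glutamate nitrogen between brain cells. Astrocytes take up released glutamate and turn it into glutamine with glutamine synthetase, glutamine is exported and imported by transporters of the plasma membrane, and glutaminase turns it back into glutamate in the receiving cell. Microglia can take up glutamine as fuel and can release glutamate, either through the cystine/glutamate antiporter, which brings in cystine for glutathione synthesis, or through hemichannels built of connexins, and both routes have been studied as sources of microglial excitotoxicity.

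The gene counts per library ranged from 23198065 to 46434788 at 5 weeks and from 10410625 to 13554336 at 24 weeks, and levels are given as normalized CPM, the counts of a gene relative to the gene counts of its library in CPM after scaling with TMM factors. The 10 microglial markers examined (Cx3cr1, P2ry12, Tmem119 and others) summed to between 28244 and 32192 normalized CPM at 5 weeks and between 23775 and 26435 at 24 weeks, with 3 called lower (Tmem119, Fcrls and Gpr34) and 1 higher (Sall1). None of them was at 0 in any library, and markers of other brain cells, also present, are given beside the genes they bear on. Read pairs on no exon were 40.0% to 41.8% of uniquely placed pairs at 5 weeks and 48.7% to 54.9% at 24 weeks, and alignments at several positions were 32.7% to 35.5% and 22.5% to 23.5% of all counts, so that both measures separated the ages, and their part in the age differences was not tested. Markers of border-associated macrophages, which CD11b beads also collect, fell in 5 of 6 cases and summed to between 965 and 1290 normalized CPM at 5 weeks and between 500.0 and 601 at 24 weeks. Replicate 3 at 5 weeks stood furthest from the other libraries of its age, with a median absolute log2 difference of 0.27 from their mean against 0.15 to 0.19 for the other 5 libraries. Replicate 3 at 24 weeks held 78 counts of Xist, the RNA of the inactive X chromosome, against at least 31677 in each other library, while 4 Y-linked genes had 0 counts in all 6, so this library goes against the others labelled female. The calls of the genes taken by name are therefore also given without these libraries where they change. For the wider list of pathway genes described below, only the numbers of calls are given without them. Fold changes of single pathway genes and of single markers are given with all libraries only, and some of these calls were lost under an alternative. All fold changes are 24 weeks minus 5 weeks on the log2 scale with their standard error (SE), and a gene was called at a Benjamini-Hochberg adjusted p below 0.05 in edgeR's quasi-likelihood test over all 16157 genes tested.

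Of the 8 genes, 7 had enough counts to be tested and 3 passed. The transporters Slc38a1 and Slc38a2 rose with age, 1.40-fold and 1.33-fold, glutamine synthetase (Glul) fell to 0.695 of its 5-week level, and Glud1, Slc1a5, Slc7a11 and Gjb1 did not pass. The 3 calls are 42.9% of the 7 tested, beside 28.8% called among all 16157 genes, where 15.5% were called higher and 13.3% lower. The ages did not overlap for 4 of the 7, namely Glul, Slc38a1, Slc38a2 and Gjb1, beside 45.1% of all genes tested. The median log2 fold change of the 7 was 0.06 against 0.00 for all genes, and their median absolute value was 0.41 against 0.33. Without 24-week replicate 3 only Slc38a1 passed, and without 5-week replicate 3 the calls numbered 4, Slc7a11 being the one added. With the trends of each library's levels with exon length and GC content removed, neither transporter passed, while Glul and Slc7a11 were lower. A share over 7 genes says little about the set, so the genes are described singly. In libraries made from many cells, a larger number of cells of a type and more RNA per cell cannot be told apart.

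**Figure D1:**
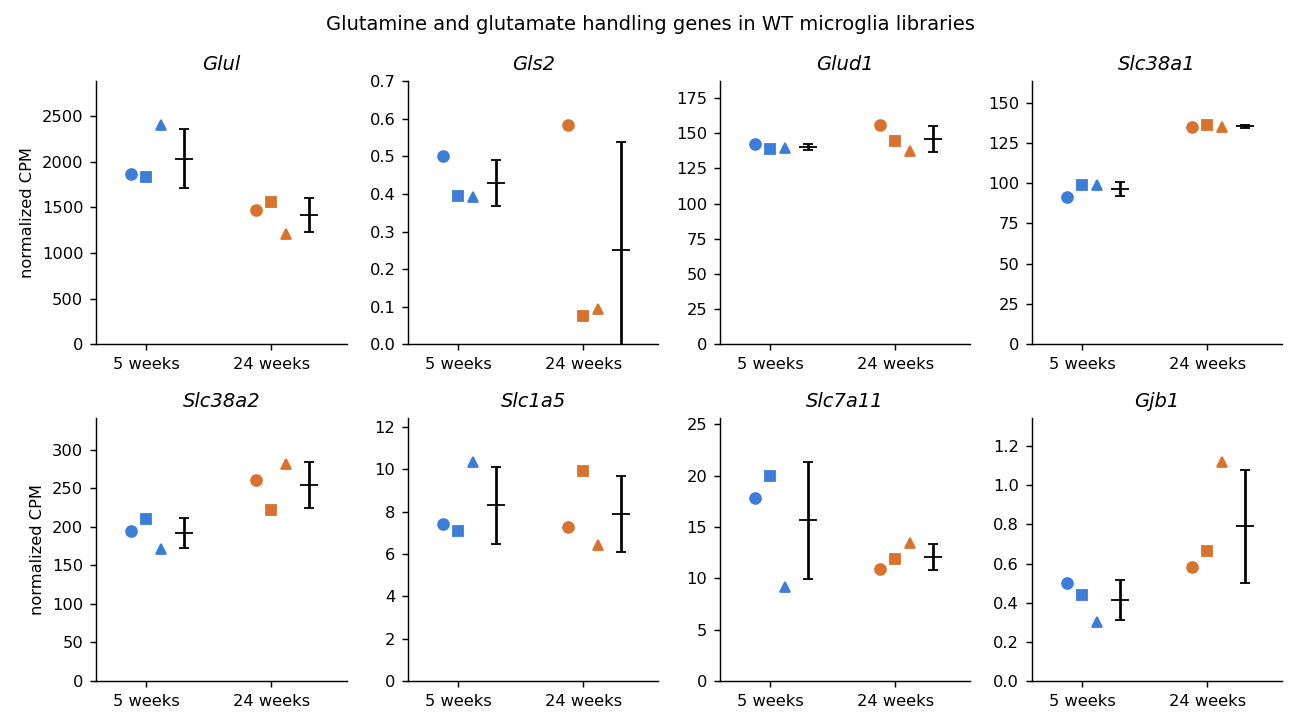
Normalized CPM (vertical axes, linear from 0, each gene on its own scale) of the 8 genes in each library at 5 weeks (blue) and 24 weeks (orange), with circles, squares and triangles for replicates 1, 2 and 3 and a black mark for the mean with its SD (n = 3). Slc38a1 separates the ages with little spread, from 91.5 to 99.0 at 5 weeks and from 135 to 136 at 24 weeks, while Slc7a11 at 5 weeks runs from 9.13 to 20.0, and the lower arm of the 24-week bar of Gls2 runs below 0 and is not drawn.

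The sequence around the start of the antiporter gene Slc7a11 is shown because it carries a pair of a known kind of regulatory element, and that of Slc38a2 for comparison, as a transporter gene that responds to amino acid shortage and that differed between the ages. ATF4, the transcription factor of the amino acid response, binds with C/EBP proteins to sites of the form TGATGNAA (CARE), and NRF2 (Nfe2l2) binds antioxidant response elements of the form TGACNNNGC (ARE). Both motifs were searched on both strands from 250 bases before to 50 bases after the annotated starts in RefSeq on GRCm38.p6, where 5 of the 8 genes had an entry (Glul, Glud1, Slc38a2, Slc7a11 and Gjb1). The Slc7a11 window is chr3:50443564-50443863 on the minus strand and the Slc38a2 window chr15:96699679-96699978 on the minus strand, both printed 5′ to 3′ with the motif matches in capitals.
Slc7a11: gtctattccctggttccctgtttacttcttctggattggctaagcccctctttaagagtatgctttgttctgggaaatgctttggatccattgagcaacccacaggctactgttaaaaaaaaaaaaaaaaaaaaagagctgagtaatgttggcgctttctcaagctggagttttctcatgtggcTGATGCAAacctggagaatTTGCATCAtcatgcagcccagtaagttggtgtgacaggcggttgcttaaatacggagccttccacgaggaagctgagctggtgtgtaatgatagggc
Slc38a2: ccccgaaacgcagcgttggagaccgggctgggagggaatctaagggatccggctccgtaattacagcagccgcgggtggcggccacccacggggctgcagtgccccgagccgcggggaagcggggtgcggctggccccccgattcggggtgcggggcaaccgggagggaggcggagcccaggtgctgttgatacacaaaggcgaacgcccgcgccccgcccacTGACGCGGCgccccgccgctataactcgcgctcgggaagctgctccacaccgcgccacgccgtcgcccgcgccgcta
The Slc7a11 window holds 2 CARE matches on opposite strands, TGATGCAA from -66 to -59 and TTGCATCA from -47 to -40 relative to the start. The Slc38a2 window holds 1 ARE match, TGACGCGGC from -27 to -19. A second window of Gjb1, which has 4 annotated starts, holds 1 ARE match from -15 to -7, and the windows of Glul and Glud1 hold neither motif. Of 32851 windows in the table, 3.97% hold a CARE match and 12.4% an ARE match, so a match describes the letters only. The motifs were chosen with the results known.

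Glul encodes glutamine synthetase, the enzyme that joins ammonia to glutamate. Glul (ENSMUSG00000026473, chr1:153899944-153909723, plus strand, GRCm38) stood at 1869, 1832 and 2405 normalized CPM in the 5-week replicates 1, 2 and 3 and at 1472, 1564 and 1208 in the 24-week replicates. Every 24-week library lay below every 5-week library, and both replicates numbered 3, which are the libraries that stood apart above, were the extremes. The mean fell from 2035 ± 320.4 to 1414 ± 185 (SD, n = 3), or -0.52 on the log2 scale (SE 0.16, adjusted p = 0.0272 in edgeR). The call was lost without 24-week replicate 3 (-0.43, adjusted p = 0.107), without 24-week replicate 1 (-0.56, 0.0788) and without 5-week replicate 1 (-0.59, 0.0512), while the direction was kept in all 6 fits that left out 1 library.

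Glul is best known from astrocytes, so their markers are given beside it. Of 10 astrocyte markers, 4 were called lower, 2 higher and 4 did not pass. Aqp4, the water channel of astrocyte endfeet, fell by 1.37 on the log2 scale (adjusted p = 0.00529 in edgeR), while the transcription factor Sox9 rose by 2.32. The median log2 fold change of the 10 markers was -0.44. They summed to between 384 and 596 normalized CPM at 5 weeks and between 384 and 454 at 24 weeks. Within these sums Slco1c1, the other marker called higher, averaged 77.8 at 5 weeks and 123 at 24 weeks. This was the direction of the endothelial markers given below, so the sums mix genes that moved in opposite directions. None of the 10 was at 0 in any library. Their part in the result was not tested. Exons of Glul share 116 bases with Teddm2 on the opposite strand and 93 bases with Mir8114 on the same strand. The counting was stranded, and pairs on both Glul and Mir8114 count for neither.

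Glutaminase, which splits glutamine into glutamate and ammonia, is represented in the set by Gls2. Gls2 (ENSMUSG00000044005, chr10:128194457-128210004, plus strand) was almost absent, with 16, 9 and 17 counts in replicates 1, 2 and 3 at 5 weeks against 8, 1 and 1 at 24 weeks, so that it was not tested. Its level averaged 0.429 ± 0.0616 normalized CPM in the younger mice and 0.250 ± 0.289 in the older (SD, n = 3), and 3 counts correspond to between 0.0693 and 0.280 normalized CPM depending on the library. The ratio of the pooled levels, 24 weeks to 5 weeks, was 0.616, with an exact 95% interval of 0.276 to 1.25 that covers counting error only. At this depth no difference in Gls2 was detectable. Its exons share 97 bases with Spryd4 on the opposite strand.

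Glud1 encodes the mitochondrial glutamate dehydrogenase, which turns glutamate into 2-oxoglutarate and back. Glud1 (ENSMUSG00000021794, chr14:34310727-34345265, plus strand) had the smallest spread of the 7 tested genes over all 6 libraries (0.06, the root mean square of its log2 level around the mean), at 142, 139 and 139 normalized CPM at 5 weeks and at 156, 144 and 138 at 24 weeks. The ages overlapped, and the 5-week libraries differed among themselves by a coefficient of variation of only 1.39%. The log2 fold change was 0.06 (SE 0.10, adjusted p = 0.689 in edgeR).

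Of the 3 glutamine transporters, the sodium-coupled carriers Slc38a1 and Slc38a2 lie side by side on chromosome 15, both on the minus strand, with 44478 bases and 0 protein-coding genes between them. Slc38a1 (ENSMUSG00000023169, chr15:96571418-96642913) stood at 91.5, 98.8 and 99.0 normalized CPM at 5 weeks and at 135, 136 and 135 at 24 weeks. All 24-week libraries lay above all 5-week libraries, by more than the whole spread within either age. The mean rose from 96.4 ± 4.27 to 135 ± 0.795 (SD, n = 3), or 0.49 on the log2 scale (SE 0.10, adjusted p = 0.00387 in edgeR), and the call was kept in each of the 6 fits without 1 library (0.44 to 0.52).

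Slc38a2 (ENSMUSG00000022462, chr15:96687392-96699730), the carrier that cells raise when amino acids are short, stood at 195, 210 and 171 normalized CPM at 5 weeks and at 261, 222 and 281 at 24 weeks. The ages did not overlap, but 5-week replicate 2 and 24-week replicate 2 were close to each other. The mean rose from 192 ± 19.9 to 255 ± 29.9 (SD, n = 3), or 0.41 on the log2 scale (SE 0.12, adjusted p = 0.0310 in edgeR). This call was lost without 24-week replicate 3 (0.33, adjusted p = 0.130), without 24-week replicate 1 (0.39, 0.105) and without 5-week replicate 1 (0.41, 0.0768).

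Both carriers have long transcripts, and long transcripts as a class were higher at 24 weeks. Tested protein-coding genes were split into 10 equal groups by exon length, and Slc38a1 belongs to the longest group, of which 32.7% were called higher and 2.02% lower, with a median log2 fold change of 0.23. Slc7a11 belongs to the same longest group and was at -0.36. The next longest group, which holds Slc38a2, had 26.4% called higher and a median of 0.17. The trends of each library's levels with exon length (the union of annotated exons) and GC content were then removed. Slc38a1 kept a log2 fold change of 0.11 (adjusted p = 0.307 in edgeR) and Slc38a2 one of 0.19 (adjusted p = 0.170), so that neither call remained. Glul, in the 4th of the 10 groups counted from the shortest, was at -0.54 (adjusted p = 0.0175) in the same fit. A further measure moved with the carriers: 8 of 10 endothelial markers and 5 of 8 mural markers rose, and 0 fell. The endothelial markers summed to between 369 and 402 normalized CPM at 5 weeks and between 696 and 747 at 24 weeks, and the mural markers to between 145 and 179 and between 273 and 302. Single genes weigh heavily in these sums: endothelial Flt1 averaged 50.9 at 5 weeks and 214 at 24 weeks, and mural Rgs5 79.5 and 138. Of the defining markers, Cldn5, Pecam1 and Cdh5 averaged 30.5, 65.0 and 11.01 normalized CPM at 5 weeks and 39.2, 74.3 and 37.7 at 24 weeks, and Pecam1 did not pass. None of these lists' markers was at 0 in every library, and 1 mural marker was at 0 in some library. Their part in the result was not tested.

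Slc1a5, an exchanger of glutamine for other neutral amino acids that proliferating cells use heavily, was low. Slc1a5 (ENSMUSG00000001918, chr7:16781340-16798274, plus strand) stood at 7.44, 7.09 and 10.4 normalized CPM at 5 weeks and at 7.30, 9.91 and 6.45 at 24 weeks. The ages overlapped over most of their range, and the log2 fold change of -0.08 (SE 0.21, adjusted p = 0.820 in edgeR) had no stable sign: it was 0.13 without 5-week replicate 3.

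Slc7a11 and Gjb1 stand for the release of glutamate. Slc7a11 (ENSMUSG00000027737, chr3:49892526-50443614, minus strand), the transport chain of the cystine/glutamate antiporter, stood at 17.8, 20.0 and 9.13 normalized CPM at 5 weeks and at 10.9, 11.9 and 13.5 at 24 weeks. Replicates 1 and 2 at 5 weeks lay above every 24-week library and replicate 3 at 5 weeks below all of them. The mean went from 15.6 ± 5.73 to 12.1 ± 1.27 (SD, n = 3), or -0.36 on the log2 scale (SE 0.25, adjusted p = 0.306 in edgeR). Without 5-week replicate 3 the value was -0.63 (adjusted p = 0.00590), and with the length and GC trends removed it was also -0.63 (adjusted p = 0.0271). Slc7a11 thus had the widest spread within 5 weeks among the 7 tested genes, with a coefficient of variation of 36.7%, and it passed only without that library or with those trends removed.

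Slc3a2, the heavy chain that carries the antiporter to the membrane and pairs with several other transport chains, was far more abundant and showed no such spread. It stood at 255, 249 and 294 normalized CPM at 5 weeks and at 267, 233 and 306 at 24 weeks, with overlapping ages and a value of 0.01 on the log2 scale (SE 0.13, adjusted p = 0.948 in edgeR).

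Gjb1, which encodes a connexin of hemichannels and gap junctions, was near the detection limit. Gjb1 (ENSMUSG00000047797, chrX:101376378-101385629, plus strand) collected 16, 10 and 13 counts in replicates 1, 2 and 3 at 5 weeks against 8, 9 and 12 at 24 weeks, which correspond to 0.5001, 0.438 and 0.300 normalized CPM at 5 weeks and to 0.584, 0.665 and 1.12 at 24 weeks. The ages did not overlap, and the highest value was that of 24-week replicate 3. The log2 fold change was 0.92 (SE 0.43, adjusted p = 0.132 in edgeR), and 0.61 without that replicate. The ratio of the pooled levels was 1.92, with an exact 95% interval of 1.15 to 3.19 for counting error only. Gjb1 is also expressed by myelinating cells. Of 10 oligodendrocyte markers, 4 fell, 0 rose and 6 did not pass, and they summed to between 1765 and 3004 normalized CPM at 5 weeks and between 1083 and 2943 at 24 weeks, with none at 0 in any library. The library with the highest Gjb1 level had the lowest of these sums. Their part in the Gjb1 level was not tested.

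Levels of different genes were compared as normalized CPM per kb of the longest coding transcript. At 5 weeks the order was Glul at 729 ± 115, Glud1 at 41.3 ± 0.573, Slc38a2 at 41.2 ± 4.27, Slc38a1 at 13.3 ± 0.588, Slc1a5 at 3.00 ± 0.652, Slc7a11 at 1.69 ± 0.622, Gjb1 at 0.260 ± 0.0645 and Gls2 at 0.167 ± 0.0240 (SD, n = 3). The libraries of neighbours in this order overlapped for Glud1 and Slc38a2 and for Gjb1 and Gls2, and for no other pair of neighbours. At 24 weeks Slc38a2, at 54.7 ± 6.41 per kb, stood above Glud1, at 43.1 ± 2.72, without overlap, and the order was otherwise the same. Glul stood at 432 per kb or more in every library, and no other gene of the 8 stood above 60.3. On the same scale Slc3a2 stood at 94.5 ± 8.61 at 5 weeks and 95.4 ± 12.9 at 24 weeks. With the union of all annotated exons as the length, Glud1 stood above Slc38a2 at both ages, at 33.3 against 21.7 per kb at 5 weeks and at 34.7 against 28.8 at 24 weeks, so the order of these genes depends on the length chosen.

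**Figure D2:**
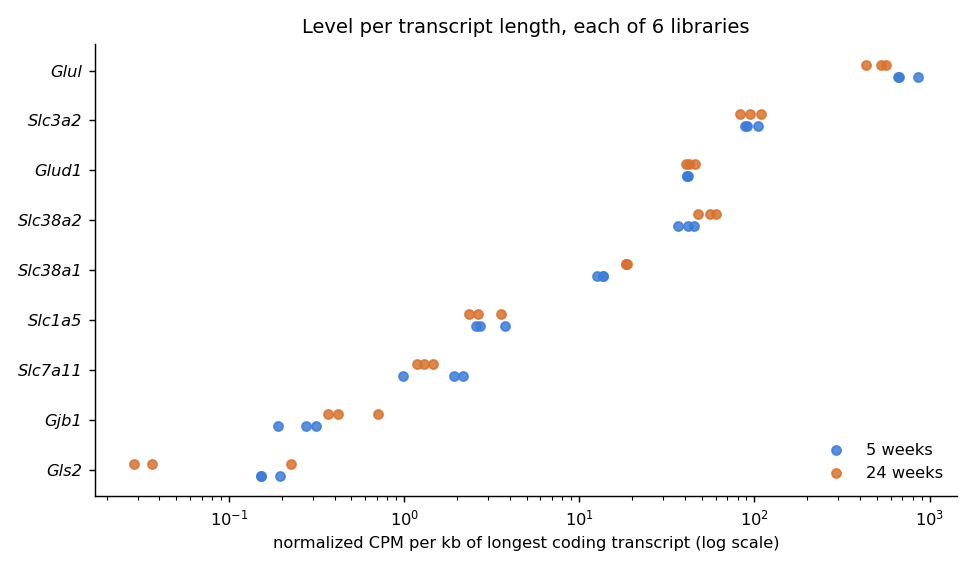
Level of the 8 genes and of Slc3a2 in each library, as normalized CPM per kb of the longest coding transcript (horizontal log axis), at 5 weeks (blue, 3 points) and 24 weeks (orange, 3 points). Glul lies between 432 and 861 in every library, Slc38a1 between 12.6 and 18.7, and Gls2 and Gjb1 lie below 1.

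Ratios within a library do not depend on how libraries are scaled. The ratio of Glul to Glud1, per kb of exon, was 16.6, 16.7 and 21.9 at 5 weeks and 11.95, 13.7 and 11.1 at 24 weeks, so that every 24-week library had less synthetase relative to dehydrogenase message. The difference of the log2 ratio was -0.58, with an exact two-sided permutation p of 0.1, which is the smallest that 3 against 3 libraries can give, and 0.4 after adjustment over the 4 ratios computed. The ratio of Slc38a1 to Slc38a2 was 0.241, 0.241 and 0.297 at 5 weeks and 0.265, 0.314 and 0.246 at 24 weeks, with overlapping ages and a difference of 0.08 on the log2 scale (exact permutation p = 0.5, adjusted 0.667). For Slc7a11 relative to Slc3a2 the difference was -0.30 (exact permutation p = 0.5), and for Slc7a11 relative to Gclc, the catalytic subunit of the first enzyme of glutathione synthesis, it was -0.15 (p = 0.8). In both of these ratios the lowest library was 5-week replicate 3.

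For each tested gene the genes with the most similar pattern over the 6 libraries were sought among 10115 other genes, by the root mean square (RMS) difference of centred log2 levels. The pattern of Glul was closest to Plxnb3 (RMS 0.03) and Slc12a9 (0.06), where the RMS of Glul itself around its mean was 0.31. Slc38a1 was closest to Trim25 (0.03) and Atp10d (0.03), and Slc38a2 to Ahnak (0.04) and Myof (0.05), which encode a very large scaffold protein and a membrane repair protein. The closest genes to Slc7a11 were Tfrc (0.07), the transferrin receptor, and Sh3bgrl (0.07), and Tfrc shared the low value of 5-week replicate 3, at 24.7 normalized CPM against 42.3 and 51.6 in the other 5-week libraries. Glud1 was closest to Trub1 and Tbk1 (both 0.02). The closest to Slc1a5 were Stx1a (0.10) and Iqgap3 (0.10), and to Gjb1 they were Stap1 (0.08) and Ncl (0.16). The RMS of each gene around its own mean, against which these are read, was 0.06 for Glud1, 0.25 for Slc38a1, 0.24 for Slc38a2, 0.25 for Slc1a5, 0.39 for Slc7a11 and 0.50 for Gjb1. These are descriptions over 6 libraries.

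Beyond the 8 genes, a list of 98 further genes of glutamine and glutamate handling was examined by role. Of these, 91 were tested, 8 rose, 11 fell and 72 did not pass, so that 20.9% were called beside the 28.8% among all genes. Their median log2 fold change was -0.02, and their median absolute value was 0.33 against 0.33 for all genes. Of these 19 calls, 8 held under every alternative examined (Slc7a5, Slc7a8, Gja4 and Myc higher, and Slc25a18, Ggt5, Gjb6 and Grin2b lower), and the other 11 were lost under at least 1. The calls over all genes moved with the same settings, from 4646 of 16157 tested as reported. Without 5-week replicate 3 the pathway counts were 15 higher and 17 lower (6042 of 15922 genes called). Without 5-week replicate 1 they were 4 and 5 (2930 of 15899). Without 24-week replicate 1 they were 5 and 6 (3087 of 16857), without replicate 2 they were 4 and 8 (2836 of 16807), and without replicate 3 they were 9 and 10 (3485 of 16792). With the length and GC trends removed 26 pathway genes were lower, beside 3574 of all 15959 genes tested.

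Among 14 further glutamine transporters, 12 were tested, 3 rose and 0 fell, which is 25% beside the 28.8% called among all genes. Slc7a5, the light chain that exchanges glutamine for leucine, stood at 41.5, 39.7 and 47.4 normalized CPM at 5 weeks and at 79.0, 84.1 and 81.6 at 24 weeks, or 0.93 on the log2 scale (SE 0.11, adjusted p = 0.000184 in edgeR). Slc7a8, a related light chain, rose by 0.95 (SE 0.16), from 218 ± 50.5 to 421 ± 28.2 normalized CPM. Slc38a3, a carrier that can export glutamine, rose by 0.46 (SE 0.13, adjusted p = 0.0187 in edgeR), and Slc38a10, at 217 ± 35.2 and 197 ± 8.54, did not pass. Slc7a5 and Slc7a8 kept their calls also with the length and GC trends removed. Slc7a5 is also a transporter of the blood-brain barrier, and the endothelial marker sums given above moved with it, although their part in it was not tested.

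Of 4 genes for the uptake of glutamate, 3 were tested and 1 passed, which is 33.3% beside the 28.8% called among all genes. Slc1a1 rose by 0.66 (SE 0.19, adjusted p = 0.0276 in edgeR) at a low level of 3.95 ± 0.431 and 6.18 ± 0.748 normalized CPM. The astrocytic transporters did not pass: Slc1a2 was at -0.55 (adjusted p = 0.0694) and Slc1a3, at mean levels of 202 and 173 normalized CPM, was at -0.23 (0.111). Of 4 mitochondrial carriers of glutamate, 2 fell, or 50% beside the same 28.8%. Slc25a18 fell by 1.14 (SE 0.25, adjusted p = 0.00601 in edgeR) and the aspartate/glutamate exchanger Slc25a13 by 0.48 (SE 0.15), while Slc25a22 was at 0.38 without passing. Slc25a18, which went from 4.27 ± 0.909 to 1.93 ± 0.0327 normalized CPM, kept its call throughout. The part of other cells in its fall was not tested. Of 3 vesicular transporters that load glutamate in neurons, 2 were tested and 1 fell, or 50% beside the same 28.8%. Slc17a7 fell by 1.43 (SE 0.37, adjusted p = 0.0148 in edgeR) and Slc17a8 was at 0.72 without passing.

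Enzymes that use glutamate or glutamine are given by group, beside the 28.8% called among all genes. In glutathione synthesis and turnover 1 of 7 tested genes fell, the leukotriene-cleaving transpeptidase Ggt5, by 0.52 (SE 0.13, adjusted p = 0.0112 in edgeR), while Gclm, Gss and Gclc were at 0.33, -0.25 and -0.14 without passing. Of 8 aminotransferases Oat fell by 0.51 (SE 0.12), and Bcat1 and Bcat2, which move nitrogen from branched-chain amino acids, were at -0.72 and -0.24 without passing. None of 9 glutamine amidotransferases passed (Gfpt1 0.33, Gfpt2 0.85, Ctps2 -0.18). In the proline and GABA branches 1 of 6 tested genes rose, namely Gad1, which makes GABA from glutamate, by 0.88 (SE 0.27) from 2.10 ± 0.550 to 3.87 ± 0.702 normalized CPM, while Aldh18a1 and Gad2 were at 0.34 and -0.39 without passing.

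Of 11 other connexins and pannexins, 10 were tested, 2 rose and 1 fell, which is 30% called beside the 28.8% among all genes. Gja4 and Gjc1, connexins of vessel walls, rose by 1.19 (SE 0.23, adjusted p = 0.00317 in edgeR) and 1.25 (SE 0.33, adjusted p = 0.0160), and Gjb6, a connexin of astrocytes, fell by 0.91 (SE 0.18, adjusted p = 0.00432). The rise of the first pair stood beside the rise of the endothelial and mural sums. Of the astrocyte markers, 4 of 10 were called lower and 2 higher, with a median log2 fold change of -0.44. Their sums overlapped between the ages, but they include Slco1c1, which rose from a mean of 77.8 to 123 normalized CPM. That is the direction of the endothelial sums, so the overlap is not that of markers moving alike. The part of other cells in these calls was not tested. Among 22 tested glutamate receptors 0 rose and 4 fell, which is 18.2% called. Among all genes 28.8% were called in either direction and 13.3% were called lower. Grin2b fell by 1.40 (SE 0.20), from 18.9 ± 4.03 to 7.08 ± 1.44 normalized CPM, Grin2a by 1.06 (SE 0.28) and Grin1 by 0.99 (SE 0.29), and the remaining one was Grm5 (-0.90), which is named after its value was seen. The 8 neuronal markers summed to between 97.6 and 106 normalized CPM at 5 weeks and between 83.7 and 121 at 24 weeks, with 2 called higher and 1 lower, and none was at 0 in any library. Their part in the receptor result was not tested.

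Of 8 transcription factors of the amino acid and oxidative stress responses, 1 rose and 1 fell, which is 25% beside the 28.8% called among all genes. Myc rose by 1.21 (SE 0.20, adjusted p = 0.00133 in edgeR), from 32.2 ± 10.8 to 75.01 ± 7.94 normalized CPM. Ddit3 fell by 0.41 (SE 0.14, adjusted p = 0.0431). Atf4, the factor whose motif form occurs in the Slc7a11 window, was at -0.26 (SE 0.13, adjusted p = 0.158), and Nfe2l2 at 0.27 (SE 0.13, adjusted p = 0.129). Atf3 was at -0.52 (adjusted p = 0.0512) and Bach1 at -0.13 (0.388), so neither passed.

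**Figure D3:**
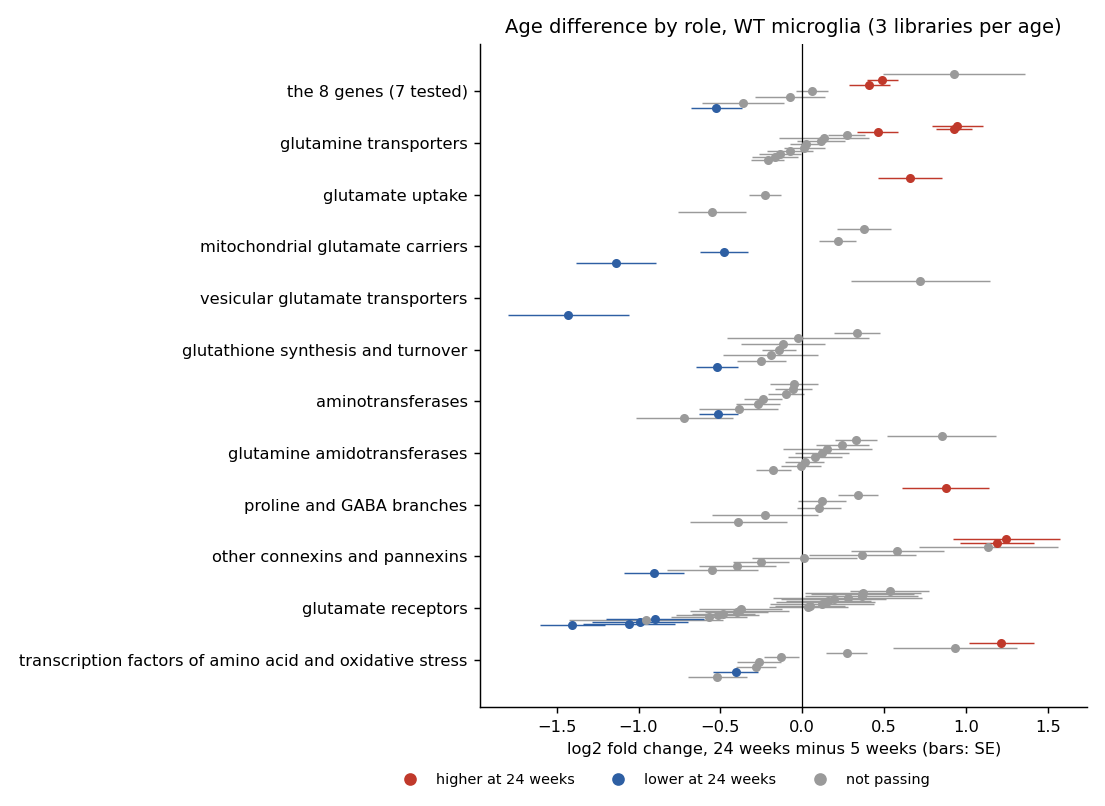
Log2 fold change, 24 weeks minus 5 weeks (horizontal axis), of the 7 tested genes and of the 91 other tested genes by role, each point 1 gene with its SE, in red where called higher, in blue where called lower and in grey where not passing. The 4 glutamate receptors called lower reach -1.40, and the 9 glutamine amidotransferases include 0 calls.

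**Figure D4:**
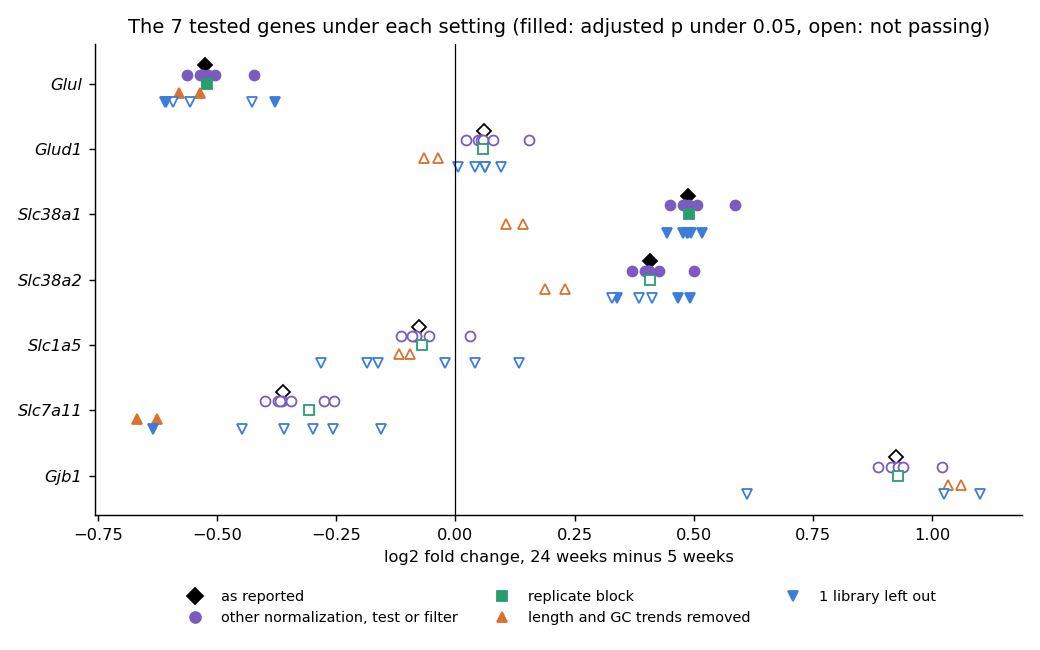
Log2 fold change, 24 weeks minus 5 weeks (horizontal axis), of the 7 tested genes as reported (diamonds) and under each alternative of normalization, test, filter, replicate block, length and GC trends or left-out library, filled where the adjusted p was under 0.05. Slc38a1 stays filled between 0.44 and 0.59 except with the trends removed (0.11 and 0.14), and Slc7a11 is filled at -0.67 and -0.63 only with the trends removed or without 5-week replicate 3.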

How the data were processed

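RNA-seq was measured on CD11b-bead microglia from 3 WT mice at 5 weeks and 3 at 24 weeks. The deposited values are raw counts of read pairs per gene, 1 table per library, which the authors made by trimming with trim_galore, aligning to GRCm38 with TopHat2 2.0.13 and counting pairs placed at 1 position on exons of Ensembl release 75, reverse strand, union mode, with HTSeq 0.6.1. DESeq2 1.6.3 was the authors' own test. The 5 rows that name no gene, 60.6% to 65.8% of all counts per library, were left out. Gene names, exons and lengths came from GENCODE mouse release 21 (37607 of 38924 identifiers matched), and promoter windows from RefSeq.

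Ages were compared with edgeR 4.0.16 (R 4.3.3): TMM, filterByExpr by age, the quasi-likelihood test on age alone, and p-values adjusted by Benjamini-Hochberg over 16157 genes that were kept. The SE is the log2 fold change over the square root of F. The p-values measure the spread between 3 mice per age. The script was tested on simulated data. Alternatives of scaling were edgeR's RLE factors, total counts and protein-coding totals. Those of test and filter were DESeq2 1.42.0, limma-voom (limma 3.58.1), no filter and a mean of at least 50 counts. Further alternatives were a replicate block, removal of length and GC trends (spline, 5 degrees of freedom) and each library left out. Trends with the longest coding transcript as length, and the ratios per kb of it, were added after seeing the data.

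Ratios were compared with exact two-sided permutation tests (scipy 1.17.1). Intervals and the floor of 3 counts cover counting error only. The 8 genes and all lists were chosen with earlier results of these data known. Some genes of the pathway list are not reported here. Named were the 8 genes, Slc3a2, up to 3 genes per role with the smallest p, role members above 100.0 normalized CPM, the first 3 markers of each list (of which only those beside a result are printed), and for each tested gene the 2 most similar genes of average log2 CPM at least 3 (prior count 2). Other genes are named after their values were seen.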

Additional observations from a re-analysis of the deposited data

Results flagged for a closer look

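Of the 8 genes and the 98 others of the pathway, 5 that were left out of the test for low counts still exceeded the floor of 3 counts in some library, and their values are given here without a test. The highest count in any library was 17 for Gls2, 7 for the glutamate transporter Slc1a6, 30 for the vesicular transporter Slc17a6, 13 for the glutathione-degrading enzyme Chac1 and 7 for the connexin Gja6. Gls2 without the filter on low counts had a log2 fold change of -0.75 (adjusted p = 0.486 in edgeR).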

How the results depend on the processing

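Of 108 alternative values of the 7 log2 fold changes, 89 kept their direction and their side of the threshold. With the length and GC trends removed, 0 of the 7 genes were called higher and 2 lower, 26 pathway genes were lower, Slc38a1 was at 0.11, Slc38a2 at 0.19, Slc7a11 at -0.63 (called) and Glud1 at -0.038, and with the longest coding transcript as length 0 were higher and 2 lower, 29 pathway genes were lower, and the same 4 genes were at 0.14, 0.23, -0.67 and -0.067. Of all calls, 40.2% were higher with the trends removed (2406 higher, 3574 lower) against 53.9% as reported (2505 and 2141). With total counts only, the median of all genes shifted to 0.10, 68.8% of calls were higher, 13 pathway genes were higher and Slc1a5 was at 0.031. Without a filter, 17 pathway genes were lower, beside 2591 of all 24342 genes tested.

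The replicate numbers belong to different mice and do not pair the libraries (correlations of same-numbered deviations 0.07, 0.09 and -0.05). With the replicate block, 1 of the 7 genes was called higher, Slc38a2 was at 0.41 (adjusted p = 0.0567 in edgeR), and Slc38a1 and Glul passed.

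Leaving out each library in turn gave 2836 to 6042 genes called, 1 to 4 of the 7, 1 to 2 higher and 0 to 2 lower, and 4 to 15 pathway genes higher and 5 to 17 lower. The 4 came without 5-week replicate 3 and 1 without 5-week replicate 1, 24-week replicate 1 or 24-week replicate 3. Over these fits Glul ran from -0.61 to -0.38, Slc38a1 from 0.44 to 0.52, Slc38a2 from 0.33 to 0.49, Slc7a11 from -0.63 to -0.16, Glud1 from 0.0051 to 0.095, Slc1a5 from -0.28 to 0.13 (above 0 without 5-week replicate 3, and 0.04 without 24-week replicate 3) and Gjb1, which kept enough counts only where a 24-week library was left out, from 0.61 to 1.10. The ratio of Slc38a1 to Slc38a2 turned to -0.017 without 24-week replicate 2 and reached 0.18, that of Slc7a11 to Gclc ran from -0.48 to 0.051 (without 5-week replicate 2), that of Slc7a11 to Slc3a2 from -0.73 to -0.04, and that of Glul to Glud1 from -0.66 to -0.45. The cause of these changes was not tested. The depth of 10410625 to 13554336 counts at 24 weeks limits Gls2 and Gjb1, where 3 counts are up to 0.280 normalized CPM.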
